A study of Mus musculus with 15 samples.

Results

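Spheroids of 21EM15 cells, an immortalized mouse lens epithelial cell line, were cut by laser capture microdissection into an internal and an external region, and the RNA of both regions was compared. The 7 samples of these regions, 4 internal and 3 external, were taken by their labels out of 15 samples in the whole series, and all 11299 genes listed for the regions were analysed. Every sample pooled material from many spheroids of the same wild-type line in both regions, with no added agent named in the labels. The zone between both regions was not collected. The study set a further external sample aside on the basis of a principal component analysis, and it is not used here. RNA was extracted with the Arcturus PicoPure kit and libraries were made with the QuantSeq kit, which reads the 3′ end of each transcript. Sections of a single established line limit the comparison to position within these spheroids, and neither the labels nor the methods say whether the same numbered samples came from the same spheroids.

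In a spheroid, cells at the rim meet the medium directly, while cells of the core receive oxygen and nutrients by diffusion through the outer layers. The front of the lens is covered by epithelium, and its bulk is built of fiber cells, the clear, crystallin-filled cells that lack organelles when mature. The lens is enclosed in a capsule, a thick basement membrane of type IV collagen, laminins and proteoglycans made by the epithelial cells.

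The internal libraries held between 4256391 and 11702504 reads over the listed genes (median 7389584) and the external libraries between 4044230 and 6086089 (median 4831472). Levels are given in CPM, the read count scaled to the size of the library, and fold changes on the log2 scale, internal minus external, as estimated by limma with their standard error (SE). A gene was called when its adjusted p was under 0.01 and its log2 fold change was over 1 in either direction. By this rule 861 genes (7.62% of the genes tested) were called, of which 370 (3.27%) were higher and 491 (4.35%) were lower in the internal region. The p-values measure the spread between these samples, which may be partly technical. The samples of both regions did not overlap for 1531 genes that were higher in the internal region (13.5%) and for 1744 genes that were lower (15.4%), and 842 of the called genes were among them. Large changes were mostly downwards: 117 called genes were over 8-fold lower and 34 were over 8-fold higher in the internal region. The median log2 fold change over all genes was 0.04. Scaling the libraries by their total reads moved this median to 0.15 and the calls to 473 higher and 393 lower genes. The first principal component held 45.8% of the variance and separated the regions. The correlation between samples over all genes was 0.920 to 0.945 among the internal, 0.929 to 0.937 among the external and 0.856 to 0.883 between internal and external samples. External replicate 1 lay nearest to the internal samples more often than the other external samples did, for 198 of the 370 higher and 242 of the 491 lower genes. A total of 460 called genes were called again with each of the 7 samples left out in turn. Gene lists are described below by the number of their measured members called in each direction and by their median fold change, to be read against the 3.27%, 4.35% and 0.04 of all genes. Counts of members without overlap are to be read against the 13.5% higher and 15.4% lower of all genes. Without the variance trend of limma fewer genes were called, 117 higher and 207 lower. The lists described here depend on it as well. Of 66 counts of higher or lower list members above 0, 54 fell by more than 1.5 times without the trend and 28 of them to 0.

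**Figure D1:**
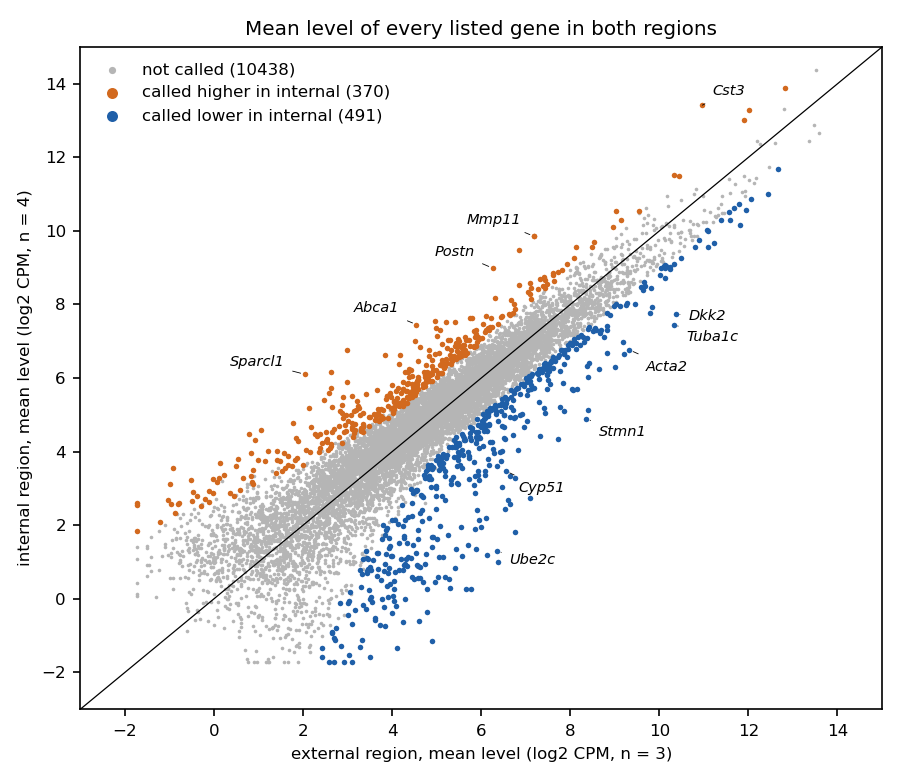
Mean log2 CPM in the external region (horizontal axis) and in the internal region (vertical axis) of all 11299 genes, with the 370 genes called higher and the 491 genes called lower in the internal region in colour and the diagonal marking equal levels. Points far below the diagonal are more numerous than points far above it, with 117 called genes over 8-fold lower and 34 over 8-fold higher.

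The cells were first checked against marker genes. The lens regulators *Pax6* (168 to 239 CPM internal, 106 to 154 external) and *Six3* (352 to 551 and 297 to 405) and the small heat shock crystallin *Cryab* (333 to 514 and 288 to 322) were measured in both regions. *Foxe3*, *Cdh1*, *Pitx3*, *Cryba4*, *Mip*, *Lim2* and *Gja3* were not among the listed genes, so that several defining markers of the lens epithelium and of fiber cells were not analysed here. *Bfsp1*, the filensin of the beaded filaments of fiber cells, was listed with 1.65, 2.19, 4.35 and 3.31 CPM in the internal and 0, 2.61 and 0 CPM in the external samples (2.22 ± 0.97, adjusted p = 0.108). These are low levels, the regions overlapped and the gene was not called. None of 16 neural and retinal and none of 12 keratinocyte and corneal markers were listed. *Aldh3a1*, which is abundant in the cornea, was not one of these markers and is given below. Of 15 macrophage markers 3 were listed (*Csf1r*, *Cx3cr1* and *Cd68*) while *Ptprc*, *Adgre1*, *Aif1*, *Tyrobp*, *Lyz2* and *C1qb* were not, and their summed level was 14.63 to 20.9 CPM in the internal and 7.754 to 26.77 CPM in the external samples. Of 14 endothelial and pericyte markers only *Pdgfrb* was listed, at 99.1, 108, 119 and 129 CPM in the internal and 76.9, 57.9 and 52.7 CPM in the external samples (0.87 ± 0.18). The regions did not overlap in *Pdgfrb*, and it was not called, but with External replicate 1 left out its change was 1.03 and it was called higher. Of 15 fibroblast markers 12 were listed, of which 1 was called higher and 2 were called lower (1 lower without Internal replicate 3 or 4 or External replicate 1 or 3, and 2 higher without External replicate 1), and their summed level was 3707 to 5227 CPM in the internal and 6173 to 8088 CPM in the external samples. The part of such cells in the results was not tested. In these bulk samples fewer cells of a kind and less RNA per cell cannot be told apart.

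Most genes of cell division were lower in the internal region. Of the 67 genes of mitosis and the G2/M phase, 56 were called lower and 0 higher in the internal region, and all 67 had a fold change below 0, with a median of −3.24. Of the 51 genes of DNA replication and S phase, 35 were called lower and 0 higher, with a median of −1.95. The external samples held 2608 to 3786 CPM of mitotic transcripts in sum, against 501.4 to 616.9 CPM in the internal samples. With each sample left out in turn, between 43 and 57 mitotic and between 26 and 35 replication genes were called lower, and without the variance trend 32 and 15.

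*Mki67*, which encodes the proliferation marker Ki-67 on the surface of mitotic chromosomes, had 3.45, 6.12, 7.098 and 6.86 CPM in the internal and 94.7, 94.2 and 114 CPM in the external samples. All external samples lay more than 10-fold above all internal samples, and the log2 fold change was −4.08 ± 0.31 (adjusted p = 1.89e-09). *Top2a*, the topoisomerase that untangles sister chromatids, had 34.5, 21.01, 53.1 and 38.3 CPM in the internal and 277, 312 and 437 CPM in the external samples, again without overlap (−3.26 ± 0.23). *Foxm1*, a transcription factor of the G2/M programme, fell by 3.84 and *Plk1*, a kinase that drives entry into mitosis, fell by 3.901 on the log2 scale. Among genes with at least 4 log2 CPM in the external region, the 15 largest decreases beyond the cyclins and the top 3 were mostly members of the mitosis list. *Ube2c*, the enzyme that passes ubiquitin to mitotic cyclins at the anaphase-promoting complex, had 0.7499, 1.62, 3.89 and 3.89 CPM internally and 80.5, 59.6 and 113 CPM externally (−5.07 ± 0.46). *Birc5*, the survivin subunit of the chromosomal passenger complex, fell by 4.94. *Espl1*, the separase that opens cohesin rings, fell by 4.87. The fold changes of kinetochore genes were −5.15 (*Ska1*), −4.93 (*Cenpf*), −4.51 (*Nuf2*), −4.45 (*Spc24*) and −4.59 (*Knstrn*). *Ttk*, a kinase of the spindle checkpoint, fell by 4.57, *Kif22*, a kinesin that binds chromosomes, fell by 4.54, *Cdca3*, which takes part in entry into mitosis, fell by 5.39, and *Cdkn3*, a phosphatase that acts on CDKs, fell by 5.22. The others were *Tk1*, the thymidine kinase of S phase (−5.38), the transcription factor gene *Tcf19* (−4.497) and *Rny3*, a non-coding Y RNA (−4.75). With 1 internal sample left out, the changes were −4.73 for *Cdca3*, −3.83 for *Spc24* and −4.48 for *Tk1* without replicate 2, −5.91 for *Ska1* without replicate 3, and −5.57 for *Cenpf* and −4.001 for *Rny3* without replicate 4. *Nuf2* ranged from −5.20 (without replicate 3) to −3.84 (without replicate 1 or 4) and *Knstrn* from −5.22 (without replicate 2) to −3.74 (without replicate 1).

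Among the replication genes, *Mcm6*, a subunit of the replicative helicase, had 2.55, 4.62, 6.41 and 8.43 CPM in the internal and 50.6, 62.7 and 67.6 CPM in the external samples (−3.49 ± 0.37, adjusted p = 3.80e-07). *Rrm2*, the regulated subunit of ribonucleotide reductase, fell by 3.75 and *Mcm2*, another helicase subunit, fell by 1.91. Not all members moved as far. *Pcna*, the sliding clamp of the polymerases, had 13.2, 12.9, 14.2 and 8.52 CPM internally and 23.1, 21.3 and 18.7 CPM externally (−0.79 ± 0.33, adjusted p = 0.0876), and *E2f1* had a fold change of −0.54, and neither was called.

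Called genes in a list of CDK inhibitors and genes tied to quiescence went in the other direction. Of 15 genes of CDK inhibitors and quiescence, 5 were called higher and 0 lower, with a median of 0.66. *Rbl2*, the p130 pocket protein of resting cells, had 12.7, 8.89, 13.5 and 11.4 CPM in the internal and 3.46, 2.18 and 2.67 CPM in the external samples (1.96 ± 0.46). *Btg1*, an antiproliferative gene, rose by 1.34, and the other called genes were *Rb1*, *Gas1* and *Gas6*. The p21 gene *Cdkn1a* had a fold change of 0.49 and was not called. This count rests on single samples: it was 3 without Internal replicate 2 and 2 without Internal replicate 3, External replicate 2 or External replicate 3, and *Rbl2* itself missed the threshold without Internal replicate 1 or 3 or External replicate 2 or 3. Of 26 targets of p53, 0 were called higher and 1 lower. The lower count was 0 with any sample but Internal replicate 2 left out and without the variance trend, and 1 was called higher without External replicate 2 or with total-read scaling.

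The start sites of the mitotic genes are shown because these genes moved together. Of the 11299 genes, 9055 were matched by symbol to a RefSeq promoter (GRCm38.p6, 250 bases before to 50 bases after the first listed start), and for 1892 of them more than 1 start was listed. The spelling TTTGAA, the core of the cell cycle homology region, was searched on both strands. It stood in 38 of the 55 matched promoters of the mitosis list (69.1%) and in 11.4% of all 9055 promoters. CCAAT, also searched on both strands, stood in 70.9% of them and in 39.3% of all promoters, and both spellings stood in 32 of the 55 and in 4.73% of all. CCAAT stood in 58.8% of the promoters of the ATF4 list and in 52% of those of the hypoxia list. Of the mitotic genes with TTTGAA, 33 of 38 were called lower (median −3.45), and of those without it 13 of 17 (median −2.71). These matches are a description of the letters and not of bound sites. The 150 bases before the start follow, 5′ to 3′ on the strand of the gene, with TTTGAA and CCAAT or their reverse complements in capitals. The 6 genes shown were picked from mitotic genes called lower that hold both spellings in these 150 bases. The presence of both in each was therefore fixed by this choice. *Ckap2l*, a spindle gene, was chosen for display after its sequence was seen. *Ube2c* lies at chr2:164769779-164769928 (plus strand), *Espl1* at chr15:102296143-102296292 (plus), *Kif22* at chr7:127042421-127042570 (minus), *Mki67* at chr7:135716380-135716529 (minus), *Ckap2l* at chr2:129297213-129297362 (minus) and *Top2a* at chr11:99024190-99024339 (minus).
Ube2c: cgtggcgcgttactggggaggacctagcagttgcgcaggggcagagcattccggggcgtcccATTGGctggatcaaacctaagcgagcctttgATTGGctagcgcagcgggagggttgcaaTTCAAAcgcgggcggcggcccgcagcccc
Espl1: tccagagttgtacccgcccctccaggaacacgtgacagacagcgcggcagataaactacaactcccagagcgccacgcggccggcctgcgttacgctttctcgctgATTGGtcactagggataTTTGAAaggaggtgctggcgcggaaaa
Kif22: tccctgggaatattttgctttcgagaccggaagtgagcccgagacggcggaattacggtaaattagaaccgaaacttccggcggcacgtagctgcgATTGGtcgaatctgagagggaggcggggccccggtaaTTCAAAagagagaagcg
Mki67: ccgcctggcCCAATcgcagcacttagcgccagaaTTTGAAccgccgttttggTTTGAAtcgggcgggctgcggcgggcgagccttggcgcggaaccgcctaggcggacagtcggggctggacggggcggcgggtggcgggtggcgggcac
Ckap2l: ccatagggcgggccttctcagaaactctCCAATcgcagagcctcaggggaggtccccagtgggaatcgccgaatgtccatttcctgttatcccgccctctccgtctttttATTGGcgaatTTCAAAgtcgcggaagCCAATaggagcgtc
Top2a: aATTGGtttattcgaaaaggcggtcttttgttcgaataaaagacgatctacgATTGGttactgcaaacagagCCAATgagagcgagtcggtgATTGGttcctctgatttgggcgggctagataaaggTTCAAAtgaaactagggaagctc
In 5 of these 6 promoters the TTTGAA spelling lay between 12 and 30 bases before the start, and in *Mki67* it occurred at 93 and at 111 bases before it.

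Ribosomal genes that were called were all lower in the internal region. Of 76 cytosolic ribosomal protein genes, 17 were called lower and 0 higher, 65 had internal samples that all lay below the external samples, and the median was −0.84. In sum these genes made up 66936 to 75222 CPM of the internal and 113687 to 136951 CPM of the external samples. Most of the changes were smaller than 2-fold. The count of calls was 30 without External replicate 1, 11 without External replicate 3, 9 with total-read scaling and 5 with quantile normalization. It was 6 without the variance trend, which leaves the fold changes as they are and alters the p-values. *Rps12*, a protein of the small subunit, had 1445, 1515, 1726 and 1457 CPM in the internal and 3229, 3961 and 4689 CPM in the external samples (−1.35 ± 0.14, adjusted p = 2.80e-07). *Rack1*, a scaffold on the small subunit, had 1155, 1326, 1455 and 1083 CPM internally and 2700.3, 3378 and 3133 CPM externally (−1.29 ± 0.14). In neither gene did any internal sample reach an external one. *Rpsa* (−1.56), *Rps2* (−1.403), *Rpl41* (−1.201), *Rpl32* (−1.08) and *Rpl37a* (−1.07) were also lower, of which *Rpl41* and *Rpl37a* had changes under 1 (−0.98 and −0.88) without External replicate 3. *Rpsa* kept its call under each alternative, and *Rps2* lost it only without the variance trend (adjusted p = 0.0101). The other calls named here depend on the scaling. Quantile normalization, which gives all samples the same distribution of values, reduced the changes of *Rps12* to −0.74, *Rack1* to −0.77, *Rpl41* to −0.67, *Rpl32* to −0.51 and *Rpl37a* to −0.49, none of which was then called, and total-read scaling ended the calls of *Rpl32* (−0.97) and *Rpl37a* (−0.96). Ribosomal protein genes have many pseudogene copies that can take reads from them.

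Of 51 genes of nucleolar ribosome assembly, 7 were called lower and 0 higher (median −0.56), and 4 were called lower without External replicate 3. *Dkc1*, which modifies ribosomal RNA, had 74.1, 73.8, 91.4 and 83.9 CPM in the internal and 354, 297 and 353 CPM in the external samples (−2.05 ± 0.15). *Fbl*, the fibrillarin of the nucleolus, fell by 1.52. The nucleolar proteins nucleolin (*Ncl*, −0.94) and nucleophosmin (*Npm1*, −0.85) were not called, but *Ncl* was called lower in 2 of the fits with a sample left out. Among 33 heat shock and chaperone genes 3 were called lower and 0 higher (median −0.52), and 6 were lower without External replicate 1 and 1 was higher without Internal replicate 3. With total-read scaling, with quantile normalization or without the variance trend 1 was lower. The inducible cytosolic chaperone gene *Hsp90aa1* had a fold change of −1.41 and the mitochondrial co-chaperonin gene *Hspe1* of −1.31. Of 31 genes of folding and the unfolded protein response in the endoplasmic reticulum 1 was called higher and 0 lower.

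Of 41 genes of amino acid synthesis and uptake under the transcription factor ATF4, 11 were called lower and 1 higher (median −0.71). *Phgdh* and *Psat1* carry out successive steps of serine synthesis. *Phgdh* had 24.9, 21.1, 38.9 and 30.1 CPM in the internal and 112, 116 and 166 CPM in the external samples (−2.196 ± 0.23, adjusted p = 2.43e-07), and *Psat1* had 76.9, 103, 108 and 133 CPM internally and 447, 434 and 486 CPM externally (−2.14 ± 0.16). *Shmt2* (−1.98) and *Mthfd2* (−1.18) of mitochondrial folate metabolism and the asparagine synthetase gene *Asns* (−1.58) were lower without overlap of the regions. *Atf4* itself (−0.62) and its stress targets *Trib3* (−0.71), *Ddit3* (0.15) and *Nupr1* (0.72) were not called. The count of lower genes was 7 without External replicate 1 and 7 without External replicate 2. In all 13 spellings were searched on both strands of the promoters, and 3 lists had enough matched promoters to give a share. The composite element TGATGNAA was found on either strand in 12 of 34 matched promoters of this list (35.3%) and in 2.15% of all promoters. The antioxidant element TGACNNNGC stood in as many of them, 12 of 34 (35.3%), against 14.8% of all promoters. With the composite element 2 of 12 genes were called lower and without it 5 of 22, with medians of −0.69 and −0.70. The promoter of *Asns* at chr6:7693210-7693359 (minus strand) is printed with the element in capitals. It was picked from genes of this list called lower because it holds the element.
Asns: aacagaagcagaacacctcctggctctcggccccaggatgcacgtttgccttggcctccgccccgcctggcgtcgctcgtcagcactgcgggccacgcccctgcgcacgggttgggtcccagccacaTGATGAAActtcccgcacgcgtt

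Most genes of cholesterol synthesis and uptake were lower in the internal region. Of 24 genes, 16 were called lower and 0 higher in the internal region (median −1.73), and the summed level was 681.6 to 836.9 CPM in the internal against 2243 to 2317 CPM in the external samples. Between 13 and 17 of these genes were called lower with a sample left out. *Cyp51*, the lanosterol demethylase, had 15.1, 15.8, 12.8 and 4.299 CPM in the internal and 98.98, 93.1 and 89.3 CPM in the external samples. All external samples were higher, and the log2 fold change was −3.09 ± 0.34 (adjusted p = 5.73e-07). *Hmgcs1*, the synthase at the start of the pathway, had 31.3, 27.6, 34.1 and 33.7 CPM internally and 119.9, 117 and 116 CPM externally (−1.89 ± 0.19), and *Sqle*, the squalene epoxidase, fell by 1.57. *Srebf2*, the gene of the transcription factor SREBP2 that drives the pathway, had 118, 125, 128 and 141 CPM internally and 183, 203 and 179.9 CPM externally (−0.56 ± 0.15, adjusted p = 0.00799) and was not called.

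Fewer genes of fatty acid synthesis were called, 2 lower and 1 higher of 14 (median −0.46). The fatty acid synthase gene *Fasn* fell by 1.46 and the elongase gene *Elovl6* fell by 1.69. *Srebf1* was the gene called higher (2.101 ± 0.54), a call that was lost without Internal replicate 2 or 3 or External replicate 2 or 3, and 2 genes were higher without External replicate 1. The change of *Srebf1* was 1.26 without External replicate 3 (adjusted p = 0.0574) and 2.84 without External replicate 1. *Abca1*, which carries cholesterol out of cells, had 162, 162, 179 and 199 CPM in the internal and 22.7, 23.1 and 23.3 CPM in the external samples (2.91 ± 0.18, adjusted p = 5.53e-11). It was opposite in direction to *Cyp51*, with no overlap of the regions in either gene. The sterol element TCACNCCAC was found on either strand in 1.04% of all promoters. It occurred in that of *Hmgcs1* at chr13:119690201-119690350 (plus strand), printed with the element in capitals, while for this list too few genes had a promoter for a share to be given. *Hmgcs1* was picked from genes of this list called lower because its promoter holds the element.
Hmgcs1: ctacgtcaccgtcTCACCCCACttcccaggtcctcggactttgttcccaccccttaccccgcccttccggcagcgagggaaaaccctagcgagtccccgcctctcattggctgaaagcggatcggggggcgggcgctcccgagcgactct

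Among genes of energy metabolism, the medians of transcripts made in mitochondria and of those made in the nucleus lay on opposite sides of 0. Of 7 mitochondrially encoded genes 4 were called higher and 1 lower, with a median of 1.004, and their summed level was 52802 to 67686 CPM in the internal and 26582 to 38926 CPM in the external samples. *COX1*, a catalytic subunit of cytochrome c oxidase, had 3193, 3654, 2554 and 2539.8 CPM internally and 1258, 1322 and 1287 CPM externally (1.19 ± 0.14, adjusted p = 1.59e-06). *CYTB* (1.11), *ND4* (1.06) and *ND5* (1.004) were also higher. Their changes lay close to 2-fold, so that the number of higher genes was 2 without Internal replicate 1 or External replicate 1 and 1 without External replicate 2. Quantile normalization reduced the change of *ND4* to 0.77 and ended its call. *ND6*, the gene on the light strand of the mitochondrial DNA, had 8.698, 4.16, 15.6 and 7.28 CPM in the internal and 30.3, 41.3 and 24.6 CPM in the external samples (−1.93 ± 0.39, adjusted p = 8.13e-04). It was the mitochondrial gene called lower, a call that was lost without External replicate 2 (adjusted p = 0.0174). The share of mitochondrial reads is also used as a sign of RNA and cell quality, and its part in the other results was not tested.

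Of 73 nuclear-encoded genes of the respiratory chain 2 were called lower (2.74%, under the share of all genes) and 0 higher, but 37 had all internal samples below all external samples and 0 the reverse. Their median was −0.45 and their summed level was 13721 to 14375 CPM in the internal and 18143 to 21387 CPM in the external samples. *Atp5g1*, a subunit of the ATP synthase ring, fell by 1.22, and *Uqcrq* of complex III fell by 1.06, or by 0.89 without External replicate 3. With quantile normalization (−0.81) or total-read scaling (−0.95) *Uqcrq* was not called. The respiratory genes called lower numbered 4 without External replicate 1 and 1 without External replicate 3. Of 36 genes of mitochondrial import and translation 5 were lower and 0 higher, with 3 lower without Internal replicate 2 or External replicate 3 and 0 without the variance trend. *Tomm20*, a receptor of the outer membrane from this list, had 56.4, 51.4, 65.5 and 52.7 CPM internally and 59.6, 57.01 and 42.2 CPM externally (0.10 ± 0.20), with overlapping regions. None of 18 genes of the tricarboxylic acid cycle was called by limma, with 3 at an unadjusted p under 0.05, none by voom and a median of −0.12.

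Glycolytic genes were lower where they were called, 4 of 20 with a median of −0.45, and 0 were higher. *Ldha*, the lactate dehydrogenase, had 633, 711, 491 and 404 CPM in the internal and 1513, 1127 and 1231 CPM in the external samples (−1.23 ± 0.16, adjusted p = 7.95e-06). The pyruvate kinase gene *Pkm* fell by 1.05 and *Gapdh* fell by 1.06. Both missed the threshold without External replicate 3 (−0.99 and −0.67), when 1 glycolytic gene was called lower. Quantile normalization ended the calls of *Pkm* (−0.51), *Gapdh* (−0.92) and *Ldha* (−0.93), and total-read scaling those of *Pkm* (−0.94) and *Gapdh* (−0.95). The glucose transporter gene *Slc2a1* (0.35) and the hexokinase gene *Hk2* (−0.87) were not called.

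Genes that hypoxia induces did not move as 1 group. Of 31 measured, 4 were called higher and 3 lower, or 2 higher without External replicate 3. Without the variance trend 0 were higher and 1 lower, and *Selenbp1*, *Ddit4*, *Vegfa*, *Adm* and *Gys1* lost their calls (adjusted p = 0.0116, 0.0362, 0.0307, 0.0299 and 0.0154). The hypoxia response spelling ACGTG, which is also contained in TCACGTGA, stood on either strand in 13 of the 25 matched promoters of this list (52%) and in 26.4% of all, and GCGTG in 19 of 25 (76%) and in 53.2% of all. In the ATF4 list the shares were 35.3% and 73.5%, so that GCGTG was about as frequent there. *Selenbp1*, a selenium-binding protein gene, had 10.9, 10.97, 7.79 and 7.19 CPM internally and 0, 0.218 and 1.87 CPM externally (3.74 ± 0.72), a fold that depends on the prior at such low counts and was 3.14 without External replicate 1 and 4.56 without External replicate 3. *Ddit4*, an inhibitor of mTORC1, rose by 1.41. *Vegfa*, the vascular growth factor, rose by 1.19, or 0.93 without External replicate 3. *Adm*, adrenomedullin, had 56.4, 48.3, 103 and 36.4 CPM in the internal and 133, 259.6 and 188 CPM in the external samples and fell by 1.72, and *Gys1*, glycogen synthase, fell by 1.18. The mitophagy receptor gene *Bnip3* had 127, 165, 86.8 and 72.7 CPM internally and 128, 92.5 and 108 CPM externally (−0.02 ± 0.22), and its relative *Bnip3l* had a fold change of 0.55. Neither of these was called.

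**Figure D2:**
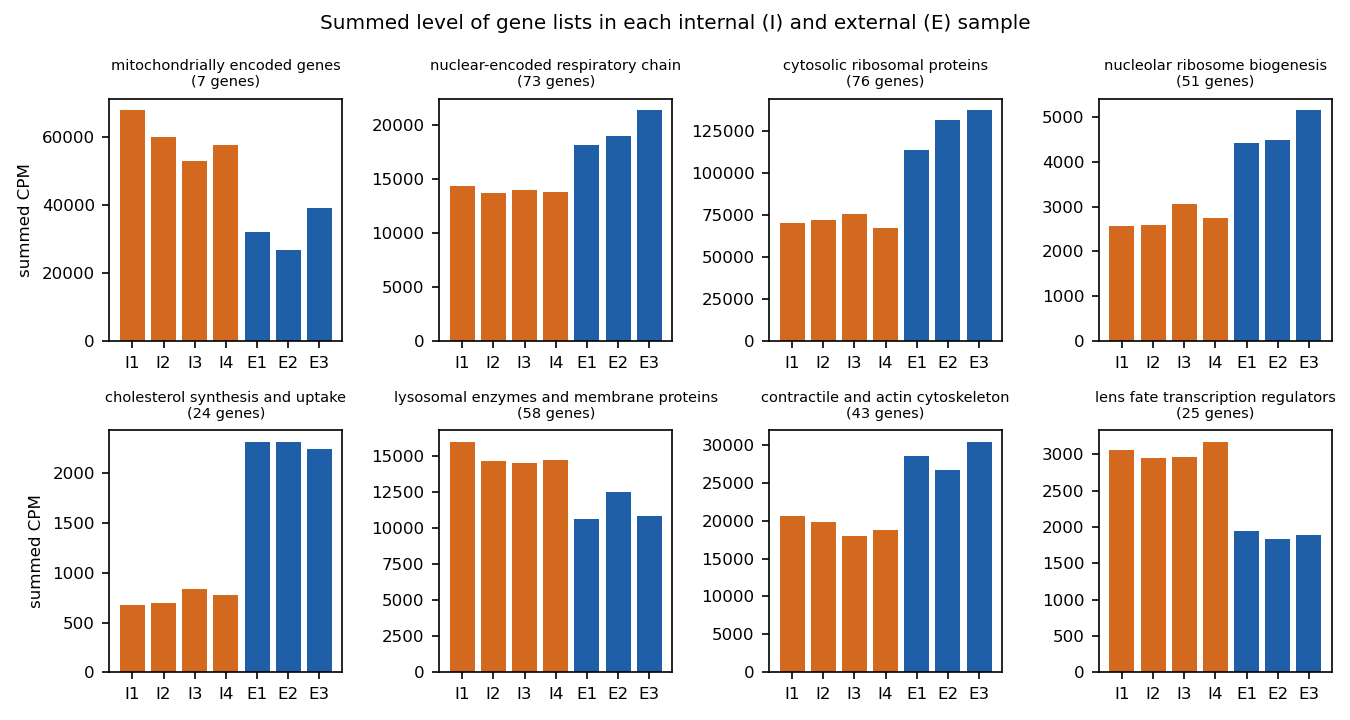
Summed CPM of selected gene lists in each of the 4 internal and 3 external samples, with each bar 1 sample and a separate linear axis from 0 for each list. The regions do not overlap in any of the 8 lists drawn, and the mitochondrially encoded, lysosomal and lens fate lists are those with the higher bars in the internal samples.

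Lysosomal genes that were called were all higher in the internal region. Of 58 genes of lysosomal enzymes and membrane proteins, 8 were called higher and 0 lower (median 0.41), and 22 had all internal samples above all external samples against 1 the other way. Without External replicate 3 the number called was 4, and without the variance trend it was 2. *Ctsl*, the cysteine protease cathepsin L, had 1174, 1497, 1298 and 1108 CPM in the internal and 717, 624 and 398 CPM in the external samples (1.16 ± 0.17), or 0.91 without External replicate 3. *Ctsf*, cathepsin F, rose by 1.36, *Scarb2*, which brings glucocerebrosidase to lysosomes, by 1.36, *Hexa*, a subunit of hexosaminidase, by 1.07, and *Mitf*, a transcription factor of this programme, by 1.72. The membrane protein genes *Lamp1* (0.48) and *Lamp2* (0.92) and *Ctsb* (0.91) were not called, but *Lamp2* was called higher in 1 of the fits with a sample left out.

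Of 40 genes of the autophagy machinery 1 was higher and 0 lower. It was *Calcoco1*, a receptor for autophagy of the endoplasmic reticulum (1.15 ± 0.18). Of 19 genes of mitophagy and organelle removal 2 were higher and 0 lower, with 1 higher without Internal replicate 1 or 4, 3 without Internal replicate 3 and 0 without the variance trend. *Pink1*, the kinase that marks damaged mitochondria, had 197, 187, 151 and 217 CPM in the internal and 107, 86.2 and 95.5 CPM in the external samples (0.96 ± 0.16) and was not called. In 2 of the fits with a sample left out *Pink1* was called higher. In the nuclear envelope 2 of 21 genes were lower. *Lmnb1*, lamin B1, had 21.4, 24.8, 15.6 and 20.4 CPM internally and 73.3, 107 and 96.8 CPM externally (−2.15 ± 0.23, adjusted p = 5.01e-07), and *Lbr*, the lamin B receptor, fell by 1.304. *Lmna*, which encodes lamins A and C, had a fold change of −0.91 and was not called.

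**Figure D3:**
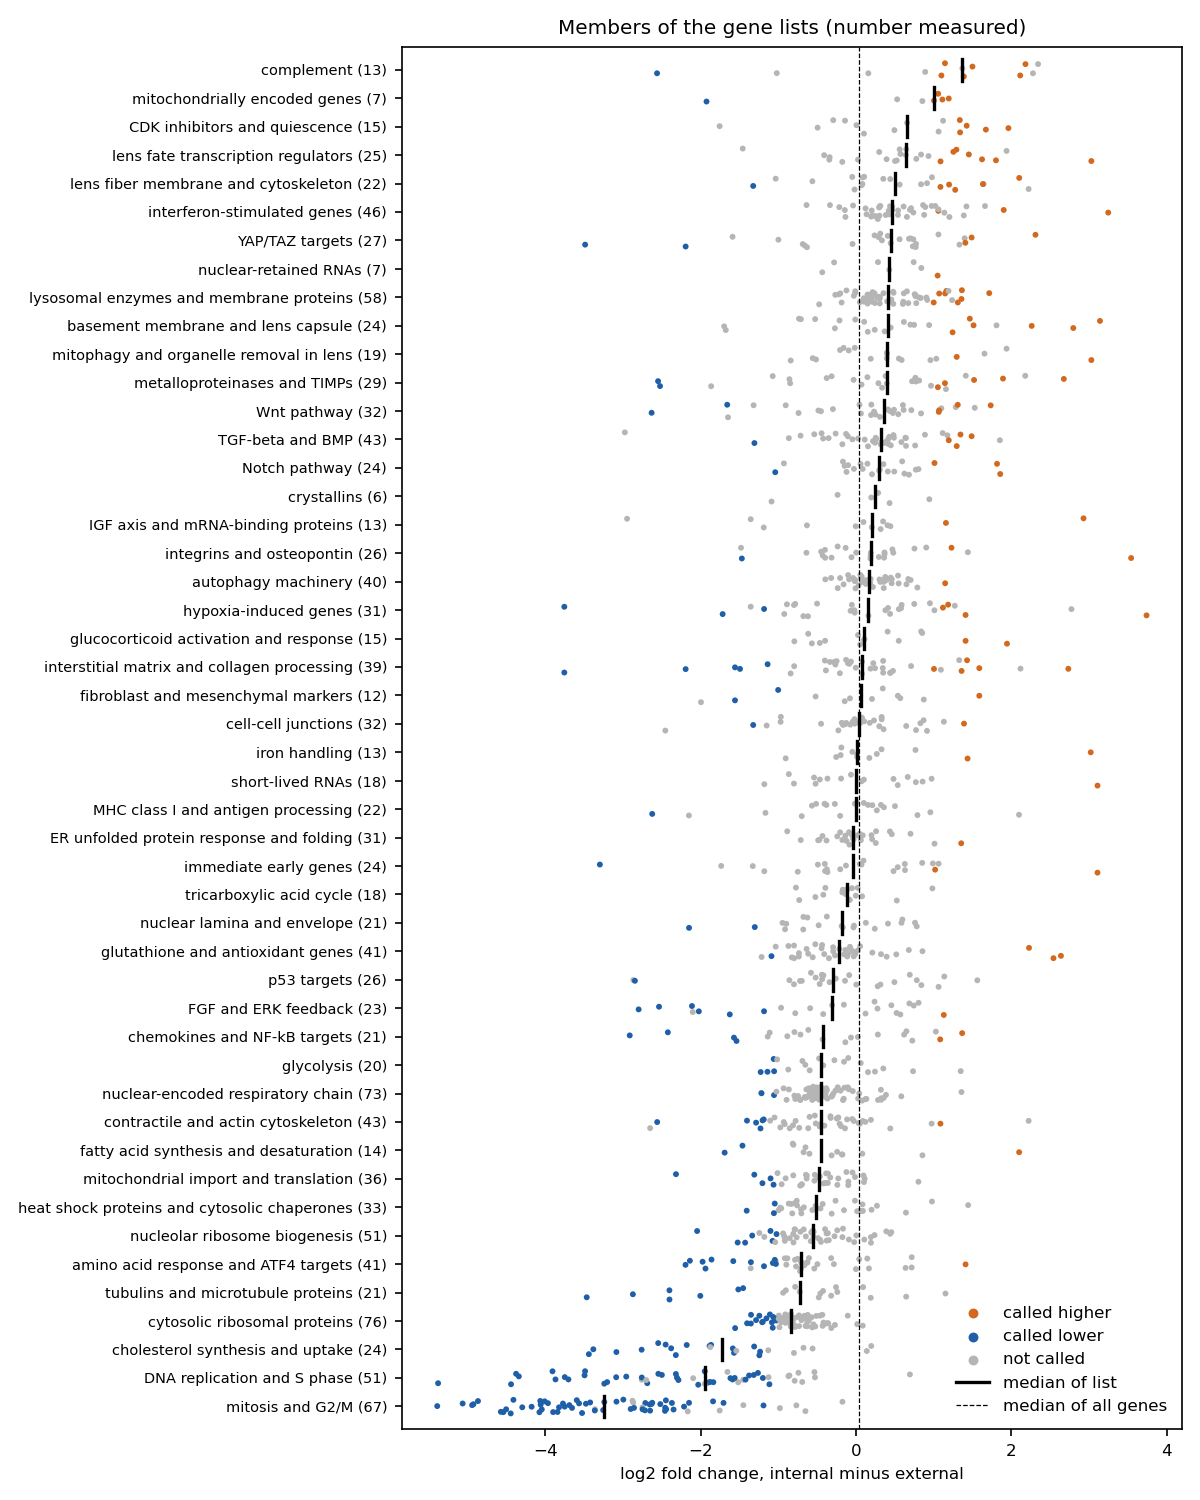
Log2 fold change (internal minus external) of the members of each gene list with at least 6 measured genes, with called genes in colour, the median of each list marked and the lists ordered by that median. The lists of mitosis, DNA replication and cholesterol synthesis lie furthest below 0, and that of complement lies furthest above it.

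In the basement membrane and lens capsule list, 6 of 24 genes were called higher and 0 lower in the internal region (median 0.41). *Col4a1*, a chain of type IV collagen, had 1580.1, 1669, 1148 and 1574 CPM in the internal and 605, 436 and 525 CPM in the external samples (1.51 ± 0.15, adjusted p = 1.17e-07). *Ntn4*, a netrin that binds laminin, had 11.4, 28.5, 15.8 and 12.4 CPM internally and 3.62, 2.61 and 0.802 CPM externally (2.798 ± 0.52). *Smoc2*, a SPARC-related matricellular gene, rose by 3.14. The others were *Col4a2*, *Col4a4* and *Lama3*, and between 4 and 6 genes were called with a sample left out.

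The interstitial matrix list held called genes in both directions, 5 higher and 5 lower of 39. The lower count was 4 or less with any sample left out, 3 without Internal replicate 2, 3 or 4 or External replicate 3, and 2 without External replicate 1 or 2. *Postn*, periostin, had 459, 659.7, 461 and 477 CPM in the internal and 121, 62.02 and 58.6 CPM in the external samples (2.73 ± 0.20). *Col3a1* rose by 1.59 and *Col6a1* by 1.43. *Col1a1*, a chain of type I collagen, had 16.8, 16.3, 28.4 and 20.9 CPM internally and 91.2, 50.5 and 46.3 CPM externally and fell by 1.56. *Col1a2*, the other chain of type I collagen, was not analysed here. *Sparc* (−0.73) and the fibronectin gene *Fn1* (0.35) were not called.

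Matrix proteases and their inhibitors differed in both directions. Of 29 genes 5 were higher and 2 lower (median 0.40), or 8 higher without External replicate 1. *Mmp11*, stromelysin 3, had 1082, 823, 868 and 949.9 CPM in the internal and 150.03, 123 and 164 CPM in the external samples (2.68 ± 0.14, adjusted p = 2.06e-11). *Mmp2*, gelatinase A, had 1233, 1229.9, 904 and 1070.4 CPM internally and 501, 479.8 and 512 CPM externally (1.15 ± 0.13). Every internal sample was above every external one in both. *Adamts2*, which trims procollagen, rose by 1.89. *Timp1*, an inhibitor of these proteases, fell by 2.55, from 548, 512 and 748 CPM in the external to 96.3, 99.2, 115 and 96.2 CPM in the internal samples, and *Plaur*, the urokinase receptor, fell by 2.52. *Timp2* (0.76) and *Timp3* (0.97) were not called, but *Timp3* was called higher in 3 of the fits with a sample left out. Of 26 integrin genes 2 were higher and 1 lower, the latter *Itga3* of a laminin receptor (−1.47). No integrin gene was called higher without Internal replicate 1 or 2 or External replicate 3, and 1 was without Internal replicate 4. Of 32 junction genes 1 was higher, *Jup* of the desmosomes (1.39), and 1 lower. With a sample left out, 1 or 2 junction genes were higher (2 without Internal replicate 3 or External replicate 1) and between 0 (without External replicate 2) and 3 (without Internal replicate 4) were lower, with 2 without Internal replicate 1.

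Called genes of the cytoskeleton were mainly lower. Of 43 contractile and actin genes 6 were called lower and 1 higher (median −0.46), and 22 lay below the external samples in every internal sample. No gene of the list was called higher without Internal replicate 4 or External replicate 3, and 2 were without External replicate 1. *Acta2*, smooth muscle actin, had 111, 128, 94.3 and 103 CPM in the internal and 570.3, 585 and 791 CPM in the external samples (−2.56 ± 0.15, adjusted p = 5.53e-11). *Actg1*, a cytoplasmic actin, fell by 1.29, while *Actb* had a change of −0.93 and was not called. The intermediate filament gene *Vim* was at 4156 to 6188 CPM in the internal and 4434 to 6019 CPM in the external samples (0.09 ± 0.16), and *Nes*, nestin, fell by 1.404. Of 21 tubulin and microtubule genes 7 were lower and 0 higher (median −0.72). *Stmn1*, which takes microtubules apart, had 28.8, 18.4, 27.02 and 51.5 CPM internally and 234, 388 and 386 CPM externally (−3.47 ± 0.25). *Tuba1c* fell by 2.87 and *Tubb4b* fell by 2.403, and reads of such close relatives may be hard to assign.

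Of 27 targets of YAP and TAZ 3 were higher and 2 lower, or 1 lower with any sample but Internal replicate 2 left out. The median of the list was 0.45, 19 of 27 members had a positive change, and 10 lay above the external samples in every internal sample against 5 below. *Ankrd1*, a commonly used target, had 8.55, 6.58, 20.4 and 6.61 CPM in the internal and 89.4, 79.6 and 178 CPM in the external samples (−3.49 ± 0.35), and *Gadd45b* rose by 1.41. Among 23 genes of FGF and ERK feedback 6 were lower and 1 was higher, or 4 lower without External replicate 1 or 3 and 0 higher without Internal replicate 2 or 4 or External replicate 3. *Etv4*, a transcription factor switched on by ERK, had 80.1, 94.1, 89.1 and 75.3 CPM internally and 339, 364 and 329 CPM externally (−2.02 ± 0.15). *Etv5* fell by 1.18 and *Ereg*, a ligand of the EGF receptor, fell by 2.799. The receptor gene *Fgfr1* (0.81) was not called.

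In the Wnt list 4 genes were higher and 2 lower of 32, or 2 higher without External replicate 3. *Lgr4*, a receptor of R-spondins, had 43.3, 29.4, 24.3 and 32.9 CPM in the internal and 8.56, 9.36 and 10.2 CPM in the external samples (1.73 ± 0.30), and *Ror1*, another Wnt receptor, rose by 1.31. The inhibitor gene *Dkk2* fell by 2.63 and the ligand gene *Wnt7b* fell by 1.66. Of 24 Notch genes 3 were higher and 1 lower, or 0 lower without Internal replicate 4. They were *Jag1*, *Notch2* and *Dtx4*, a regulator of the pathway (1.86), against *Rbpj*, and the target *Hes1* (0.77) was not called. The call of *Rbpj* was also lost with total-read scaling, quantile normalization, the replicate block or without the variance trend. *Jag1* had already been named for the internal region by the study. Of 43 TGF-beta and BMP genes 4 were higher and 1 lower, or 0 lower without Internal replicate 1 or any external sample. *Tgfb2* had 398, 419.9, 359 and 368 CPM internally and 152, 151 and 112 CPM externally (1.49 ± 0.15), and the ligand gene *Tgfb3* rose by 1.297 and the co-receptor gene *Tgfbr3* by 1.35. Of 15 genes of glucocorticoid activation and response 2 were higher, among them *Hsd11b1*, which activates the hormone within cells (1.94). Of 13 genes of the IGF axis 2 were higher, or 1 without Internal replicate 2 or External replicate 2 or 3, and 1 was lower without Internal replicate 3 or 4. Of 24 immediate early genes 2 were higher and 1 lower, the latter *Fosl1* of the AP-1 family (−3.299). Without Internal replicate 4 none was called higher, without Internal replicate 1 or 2 or External replicate 2 or 3 only 1 was, and without Internal replicate 1 there were 2 lower.

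Among immune genes, the complement list had the largest share of higher genes, 6 of 13 with 1 lower (median 1.37). *C1s1*, a protease of the first component, had 27.6, 40.6, 28.6 and 37.1 CPM in the internal and 19.4, 10.2 and 1.604 CPM in the external samples (2.18 ± 0.50). Without External replicate 3 its change was 1.21 and the call was lost (adjusted p = 0.0123), and without External replicate 1 the change was 2.90. *Clu*, clusterin, a secreted chaperone that inhibits the terminal complex, had 132, 227, 180.2 and 212 CPM internally and 49.6, 39.8 and 38.2 CPM externally (2.11 ± 0.19, adjusted p = 3.19e-08). *C1rl* rose by 1.4997 and the membrane inhibitor *Cd59a* by 1.39, while *Masp1*, a protease of the lectin pathway, fell by 2.56. Of 46 interferon-stimulated genes 3 were higher and 0 lower, or 1 higher without Internal replicate 3. The antiviral gene *Mx1* had 13.3, 5.31, 37.3 and 12.2 CPM in the internal and 1.65, 0.653 and 1.34 CPM in the external samples (3.25 ± 0.60), but *Isg15* (0.20) and *Ifit1* (0.71) were not called. Of 22 genes of antigen presentation 0 were higher and 1 lower, or 0 lower without Internal replicate 1 or 4 or any external sample. Of 21 chemokine and NF-kB genes 2 were higher and 4 lower, among the latter the cytokine gene *Il11* (−2.91 ± 0.38). The lower count was 2 without Internal replicate 1 or 4 and 1 without External replicate 1 or 2, and the higher count was 1 without Internal replicate 1 or 2 or External replicate 2 and 0 without External replicate 3.

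Of 41 genes of glutathione and antioxidant defence 3 were higher and 1 lower, or 2 lower without Internal replicate 2 or External replicate 3. *Txnip*, which binds thioredoxin and limits glucose uptake, had 22.6, 65.1, 39.8 and 30.01 CPM in the internal and 19.6, 6.31 and 1.604 CPM in the external samples (2.54 ± 0.52, adjusted p = 8.26e-04). Its change was 1.68 without External replicate 3 and 3.37 without External replicate 1. *Aldh3a1*, an aldehyde dehydrogenase abundant in the cornea, rose by 2.64 and *Mgst1*, a microsomal glutathione transferase, by 2.23. Of 13 iron genes 2 were higher and 0 lower. *Slc40a1*, ferroportin, which exports iron, had 49.04, 66.2, 55.9 and 30.3 CPM internally and 8.73, 5.22 and 4.01 CPM externally (3.02 ± 0.33), and *Steap3*, an iron reductase of endosomes, rose by 1.44.

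Of 25 measured regulators of lens fate 7 were called higher and 0 lower (median 0.64), and 14 had every internal sample above every external sample against 0 the other way. Their summed level was 2951 to 3170 CPM in the internal and 1841 to 1947 CPM in the external samples, and between 5 and 7 were called with a sample left out, or 3 without the variance trend. The called genes were *Hsf4*, *Eya1*, *Prox1*, *Maf* and *Meis1*, with *Sox9* and *Hmx1*. The study had already named the first 5 of these for the internal region from the same samples, so they add no independent support. *Sox9*, a SOX family transcription factor gene, had 123, 106, 136 and 115 CPM internally and 60.1, 50.05 and 37.97 CPM externally (1.29 ± 0.19), and *Hmx1*, a homeobox gene, rose by 1.62. The regulators that mark the lens placode, *Pax6* (0.65) and *Six3* (0.39), were not called. Of 22 measured genes in a list of lens membrane and cytoskeleton genes, which holds genes of fiber cells and of the epithelium, 5 were higher and 1 lower. The higher genes were *Pgm5*, *Atp1b1*, *Aqp1*, *Ank2* and *Cap2* and the lower gene was *Epha2*. Of these, *Atp1b1*, *Ank2* and *Cap2* had also been named for the internal region by the study. Without Internal replicate 1 or 2 or External replicate 2 or 3 there were 3 higher genes, and the lower count was 0 without External replicate 1 or 2 and 2 without Internal replicate 2 or External replicate 3. *Aqp1*, the water channel of the lens epithelium, had 9846, 10674, 9776 and 9831 CPM in the internal and 4279.8, 4476 and 3689 CPM in the external samples (1.28 ± 0.14, adjusted p = 5.79e-07). Of 6 crystallin-family genes measured none was called by limma, with 2 at an unadjusted p under 0.05, or by voom. *Cryab* had 333, 441, 514 and 363 CPM internally and 295, 322 and 288 CPM externally (0.43 ± 0.15, adjusted p = 0.041). *Crybg1* ran the other way, with 8.70, 6.12, 17.6 and 8.93 CPM internally and 17.6, 30.9 and 16.3 CPM externally (−1.09 ± 0.39, adjusted p = 0.0472). Its regions overlapped.

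Leaving out the top 3, the 15 largest increases among genes with at least 4 log2 CPM in the internal region were the following, whether or not they belong to a list. *Sparcl1*, a matricellular relative of SPARC, had 87.4, 84.98, 56.8 and 52.003 CPM in the internal and 5.27, 2.39 and 4.28 CPM in the external samples (4.07 ± 0.32, adjusted p = 3.66e-09). *Rspo3*, a secreted amplifier of Wnt signals, had 71.2, 42.1, 48.8 and 51.2 CPM internally and 5.76, 5.005 and 6.95 CPM externally (3.095 ± 0.29). No internal sample overlapped the external ones in either gene. *Tnn*, a tenascin, rose by 3.001, *Lgi4*, a secreted leucine-rich protein, by 3.05 and *Pappa*, a protease that frees IGFs from their binding proteins, by 2.93. At the membrane, *Chodl*, a lectin, rose by 3.76, *Fxyd1*, a regulator of the sodium pump, by 3.701 and *Mme*, the peptidase neprilysin, by 3.55. The change of *Fxyd1* was 2.44 without External replicate 1 and 4.34 and 4.31 without External replicate 2 or 3, that of *Mme* was 4.22 and 2.88 without External replicate 1 or 3, and that of *Chodl* was 4.504 without External replicate 1. Without External replicate 2 *Tnn* rose by 2.35 and *Adh1* by 2.18. The enzymes were *Ces1a*, a carboxylesterase (3.41), *Adh1*, an alcohol dehydrogenase (2.901), and *Pde1b*, a phosphodiesterase (2.802). *Csrp3*, a LIM protein known from muscle, rose by 3.55. *Ntn4*, *Slc40a1* and *Abca1*, described above, complete the 15.

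Among called genes with the highest levels, *Cst3*, the secreted protease inhibitor cystatin C, had 10729, 11932, 10244 and 10958 CPM in the internal and 2081, 1543 and 2492 CPM in the external samples (2.45 ± 0.16, adjusted p = 1.27e-10). The nuclear non-coding RNA *Malat1* rose by 1.05, a call that was lost without Internal replicate 2 or External replicate 1 or 2. Of 7 RNAs retained in the nucleus it was the only one called, and their summed level was 3383 to 4496 CPM in the internal and 2150 to 2923 CPM in the external samples. On the other side *Lgals1*, galectin 1, had 2217, 2017, 1758 and 2238 CPM internally and 4948, 5419.5 and 6504 CPM externally (−1.45 ± 0.14). *Lrrc17*, a secreted leucine-rich protein, fell by 1.65. *S100a4*, a calcium-binding protein used as a fibroblast marker, fell by 1.003, and its call was lost without Internal replicate 3 or 4 or External replicate 1 or 3.

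**Figure D4:**
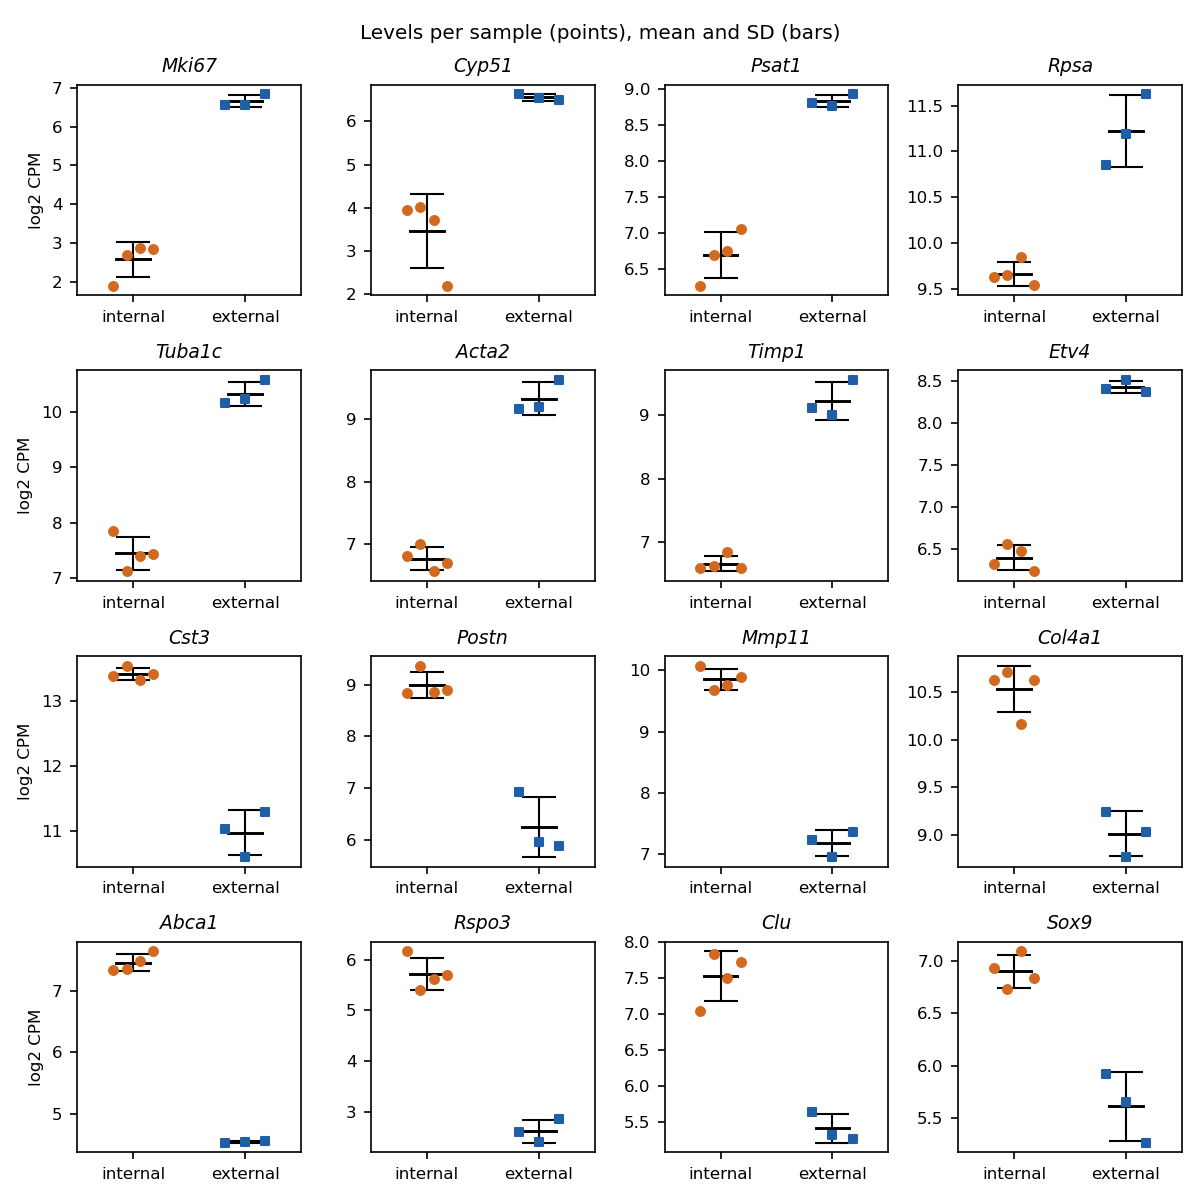
Log2 CPM of selected genes in each of the 4 internal and 3 external samples, each point being 1 sample, with the mean and SD of each region as bars. The points of both regions do not overlap in any of the 16 genes drawn, all of which were chosen among called genes. Of the 861 called genes 842 had no overlap.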

How the data were processed

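RNA from 4 internal and 3 external samples of spheroid sections was sequenced from the 3′ end. Per the submitters' processing notes, STAR 2.7.8a, featureCounts 1.6.0 and GRCm38.p6 were used. The authors deposited log2 CPM per gene and sample, after removing genes with low CPM, with library sizes scaled between samples and a prior count of about 2 reads. They also deposited columns of their own comparison, which hold fold changes, p-values and adjusted p-values and were not used here. The annotation release is not given in the sources used here.

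The unit is log2 CPM and not counts, so genes were tested with limma 3.58.1 in R 4.3.3 (linear model on the deposited log2 values, empirical Bayes with a variance trend, two-sided, Benjamini-Hochberg adjustment over all 11299 genes). The steps between deposited values gave back whole reads for 100% of 79093 values, within 0.02 reads of a whole number, and served for depth, for CPM and for alternative scalings. Between samples, 3 reads were taken as the smallest signal. Reads copied by PCR cannot be told apart, so such limits cover counting error only. A fold change understates the change of low genes because of the prior.

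Gene lists (52) are described by counts and medians without a set test. Members and lists were chosen with earlier results of these data known, so that a count is no independent support. Genes were named if they had the 15 largest changes (at 4 log2 CPM or more on average where higher) or 10 highest levels among calls without overlap in each direction, leaving out the cell cycle and lens genes that the study names for the regions and the top 3 of each direction, if they led the calls of a list, or if they were marked in a list beforehand. Members of lists whose calls were lost with a sample left out are mostly given by count only. *Ckap2l* and the names that complete small counts were chosen after their values were seen. Alternatives were other scalings, filters, pseudocounts, thresholds, voom weights, thinning of reads, a replicate block and leaving out each sample. The scripts were tested on simulated data. Python 3.11.15, numpy 2.4.6, pandas 2.3.3 and matplotlib 3.10.9 were used. Of the gene IDs, 11298 were found in GENCODE vM21. Some genes that meet these rules are not reported here.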

Additional observations from a re-analysis of the deposited data

Results flagged for a closer look

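In 235 groups of 4 internal samples, 1 for each gene or summed list examined, the sample at one end was compared with its nearest neighbour, and in 13 groups the gap over the whole range passed Dixon's critical value for 4 samples. Chance alone flags about 1 in 20 groups, so this number is about what chance gives. Internal replicate 3 stood highest for *Asns* (0.918), *Dkk2* (0.913), *Ereg* (0.911) and *Plk1* (0.947), and lowest for *Adh1* (0.949), *Col4a1* (0.844), *Mitf* (0.923) and the summed level of basement membrane genes (0.860). Internal replicate 2 stood highest for *Aqp1* (0.920) and *Postn* (0.893), and Internal replicate 1 for *Nupr1* (0.940) and the summed level of lysosomal genes (0.866). Internal replicate 4 stood lowest for *Cyp51* (0.836). The causes were not tested. Except for *Nupr1*, which was not called, the genes named here kept their calls with each sample left out.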

How the results depend on the processing

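The counts of 370 higher and 491 lower genes depended most on the variance trend of limma: without it 117 and 207 genes were called, 107 and 190 of them shared. Without a fold change threshold 588 and 890 genes passed, and 320 lower genes were called among genes averaging 4 log2 CPM or more. Leaving out each sample gave 281 to 402 higher and 352 to 489 lower genes. At an adjusted p under 0.05 the counts were 539 and 638, with voom weights 250 and 487. The first component held 58.3% of the variance over the 500 most variable genes, 37.3% with unit variance, and 45.4% to 50.1% with a sample left out. With the replicate block 256 and 399 genes were called, 248 and 378 of them shared, but Internal replicate 4 then drops out. Deviations of same-numbered samples from the mean of their region had correlations of −0.044, −0.065 and −0.063. With 3 such pairs, and deviations that sum to 0 within a region, these values cannot tell whether the samples were paired. Among the 140 called genes followed singly, the block ended the calls of *Rbl2*, *S100a4*, *Srebf1* and *Adamts2*. *Rbpj*, followed only by the count of its list, lost its call as well. Of 66 counts of list members above 0, 54 fell by more than 1.5 times without the trend (28 to 0), 16 with the replicate block, 15 with voom weights, 13 with total-read scaling, 8 with quantile normalization and 7 to 23 with a sample left out. Tubulin genes (7 lower) and cholesterol genes (11 lower against 16) moved less without the trend. Quantile normalization or total-read scaling also ended the call of *S100a4* (−0.90 and −0.89). Voom weights ended those of *Adamts2*, *C1s1*, *Ces1a*, *Mx1*, *Ntn4*, *Rbl2*, *Selenbp1*, *Smoc2*, *Srebf1*, *Tnn* and *Txnip* (adjusted p = 0.0102 to 0.0981) and of *S100a4* (−0.998), and the robust prior those of *C1s1*, *Srebf1* and *Txnip* (adjusted p = 0.0204 to 0.0324). *ND5* fell just under the threshold (0.9863 to 0.9995) with median-of-ratios scaling, thinned reads or a pseudocount of 5. No called gene changed sign under any alternative. Of 140 called genes followed singly, 122 kept their call with each sample left out and 65 lost it without the variance trend. Other called genes, named to complete the count of a list, were followed by that count only. Among these, *Rbpj* and *Epha2* lost their calls with some samples left out. The medians of 10 lists changed sign under some alternative: hypoxia, unfolded protein response, iron, interstitial matrix, immediate early, glucocorticoid, antigen presentation, chemokine, short-lived RNA and fibroblast genes, so no direction is given for them. Depth limits genes near 3 reads, and 5 higher and 11 lower calls rest on such a region.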
